A study of Drosophila mettleri with 18 samples.

Results

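A set of 5 assembled transcripts of the cactus fly Drosophila mettleri stood higher in every library from the Santa Catalina Island population than in any library from the Sonoran population, whichever of 3 foods the larvae had eaten. They are comp19632_c0, comp30393_c0, comp32520_c0, comp37982_c0 and comp27215_c0, and their mean levels were 1.62 to 11.7 times as high in Catalina as in Sonoran larvae. They were found in a list of 40 transcripts taken from 15947 in all, and they are the 5 members of that list whose lowest Catalina library lay above the highest Sonoran one. The other 35 members were tied at a separation of 0 and are nearly empty rows of the count table.

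RNA was sequenced from larvae of the third instar, 8 days old, in pools of 10. The Catalina stocks were C-M (replicate 1), C-7 (replicate 2) and C-9 (replicate 3), and the Sonoran stocks were T-22 (replicate 1), T-27 (replicate 2) and T-28 (replicate 3). Values of a population on a food are given below in that order of strains. Each strain was reared on coastal prickly pear cactus, on saguaro cactus and on lab food, which was Drosophila 4-24 Instant food, so that 18 libraries fell into 6 groups of 3. The groups carry no mutation or drug: they differ in the origin of the fly stock and in the food alone, as far as the labels say, and each strain is a single stock with 1 pool on each food.

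Drosophila mettleri is a desert fly whose larvae live in soil soaked with juice from rotting cacti. Mainland Sonoran flies use large columnar cacti such as saguaro, whose tissue holds toxic alkaloids, while flies on Santa Catalina Island use prickly pear. In insects, the best known answers to host toxins are detoxification enzymes such as cytochrome P450s and glutathione transferases. The deposited counts give assembly names only. No function is therefore stated for any transcript here, and no sequence of them was used.

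A library's count was divided by a size factor, the median over transcripts of its ratio to the geometric mean of all 18 libraries, and is called a normalized count. For each transcript the gap was the lowest Catalina value of log2(normalized count + 8) minus the highest Sonoran value, over 9 libraries of each population. Only transcripts that are the sole row of their assembly component were eligible, and only if the means of the 3 foods lay within 0.8 of each other on the same log2 scale, which left 7504. The 40 with the largest gap were taken. The members were thus selected on their population difference and on their small food span, and both are described without a test.

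The label of the list, transcripts higher in Catalina on every food, holds for 5 of its 40 members. These 5 are 0.0666% of the 7504 eligible transcripts, and 7 transcripts, or 0.0933%, were separated in the opposite direction. Their gaps ran from 0.07 to 1.21 on the log2 scale, against 0.01 to 0.33 for the 7 separated the other way. The remaining 35 places fell within a tie of 155 transcripts at a gap of 0, and the order of rows in the file decided which of the 155 were taken. In each of those 155, all 9 Sonoran libraries had 0 counts and at least 1 Catalina library did too. The 35 that filled the list held 0 to 7 counts summed over the 9 Catalina libraries, with a median of 3. Of the 35, 2 had no count in any library, none had a count in more than 5 Catalina libraries, and none passed the filter on low counts. Rows of this kind were about as many the other way round: 151 had 0 counts in all Catalina libraries and a gap of 0, with a median of 3 Sonoran counts. No fold is given for the tied rows, and none of them is named, because a tie offers no order to choose by.

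**Figure D1:**
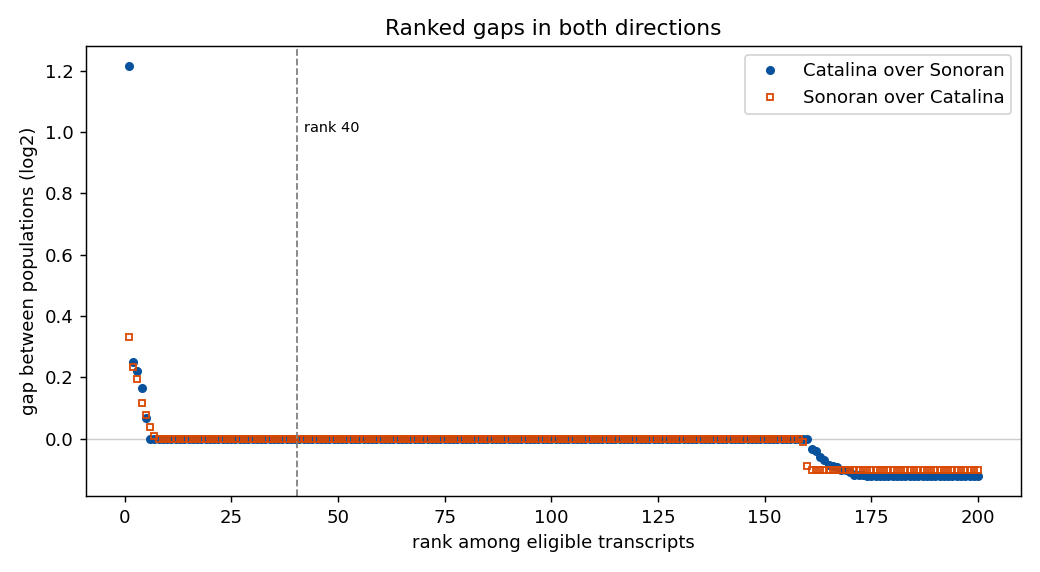
Gap between the populations in log2 units (y axis) for the first 200 eligible transcripts ranked by it (x axis), with Catalina over Sonoran as filled circles and Sonoran over Catalina as open squares. Gaps lie above 0 for 5 transcripts in the first direction and 7 in the second, after which a flat run at 0 crosses the dashed line at rank 40.

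Totals ranged from 12177096 to 15418605 counts in the 9 Catalina libraries and from 6769906 to 16115982 in the 9 Sonoran libraries, and the smallest was strain T-27 on saguaro. The size factors ran from 0.708 to 1.70 in Catalina and from 0.49 to 1.44 in Sonoran. All 5 transcripts passed the filter on low counts. comp30393_c0 reached 10 counts in 1 Sonoran library, so its place among the tested transcripts came mainly from Catalina. comp27215_c0 reached 10 counts in 3 Sonoran libraries. Levels in pooled whole larvae do not tell fewer cells of a type from less RNA per cell. Levels are not compared between transcripts, since no transcript lengths were used.

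The widest separation was that of comp19632_c0. Catalina larvae had 2800.1, 2137 and 1583 normalized counts on prickly pear, 3452, 3206 and 2530.3 on saguaro, and 2949, 2586 and 3387 on lab food. Sonoran larvae had 253, 678 and 117 on prickly pear, 77.8, 306 and 149 on saguaro, and 71.8, 394 and 61.4 on lab food. The populations did not overlap on any food, and the 2 libraries closest to each other, C-9 and T-27, were both on prickly pear. The mean was 2737 ± 295 in Catalina and 234 ± 195 in Sonoran (SD over 3 strain means), a ratio of 11.7. The lowest Catalina strain mean was 5.44 times the highest Sonoran one. On CPM, counts relative to the library total as scaled by TMM, the log2 ratio of population means was 3.50, and without strain T-27 it was 4.45.

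A similar ratio at a lower count was seen for comp27215_c0. Catalina larvae had 126, 90.8 and 48.2 normalized counts on prickly pear, 243, 117 and 146 on saguaro, and 205, 147 and 161 on lab food. Sonoran larvae had 4.18, 12.8 and 10.4 on prickly pear, 10.6, 16.2 and 7.44 on saguaro, and 5.67, 45.6 and 6.82 on lab food. Its gap of 0.07 was the smallest of the 5 and was set by a single library on each side, C-9 on prickly pear and T-27 on lab food. The mean was 143 ± 42.3 in Catalina and 13.3 ± 10.0 in Sonoran (SD over 3 strain means), a ratio of 10.7. The log2 ratio on TMM-scaled CPM was 3.39, and without strain T-27 it was 4.21.

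The scarcest of the 5 in these counts was comp30393_c0. In Catalina it had 18.9, 20.9 and 31.1 normalized counts on prickly pear, 22.6, 29.9 and 16.1 on saguaro, and 28.5, 22.1 and 12.9 on lab food. In Sonoran it had 5.57, 0.911 and 9.55 on prickly pear, 7.07, 0 and 5.31 on saguaro, and 4.73, 1.14 and 3.41 on lab food. The raw counts behind these values were 12 to 53 in Catalina libraries and 0 to 11 in Sonoran ones. Counts this low carry counting error, whose share of the spread was not tested. The count of 0, in strain T-27 on saguaro, allows a level of up to 0.443 CPM in that library, here relative to its total without TMM scaling. The mean was 22.6 ± 2.23 in Catalina and 4.19 ± 3.04 in Sonoran (SD over 3 strain means), a ratio of 5.39. The log2 ratio on TMM-scaled CPM was 2.39, and without strain T-27 it fell to 1.89.

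In the other 2 transcripts the ratio was small and the Catalina libraries lay close together. The Sonoran libraries did so for comp32520_c0, but for comp37982_c0 they ran from 42.6 to 87.5 normalized counts. comp37982_c0 had 113, 116 and 130.4 normalized counts on prickly pear in Catalina larvae, 127, 99.3 and 129 on saguaro, and 107, 109 and 136 on lab food. In Sonoran larvae it had 52.2, 44.7 and 47.7 on prickly pear, 50.7, 42.6 and 55.2 on saguaro, and 44.4, 66.1 and 87.5 on lab food. The highest Sonoran library, T-28 on lab food, came within 0.17 log2 units of the lowest Catalina one, C-7 on saguaro. The mean was 119 ± 11.98 in Catalina and 54.6 ± 7.80 in Sonoran (SD over 3 strain means), a ratio of 2.17.

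comp32520_c0 had the smallest ratio. Catalina larvae had 336, 291 and 318 normalized counts on prickly pear, 317, 278 and 247 on saguaro, and 277, 303 and 284 on lab food. Sonoran larvae had 200.5, 179 and 211 on prickly pear, 174, 152 and 204 on saguaro, and 176, 165 and 173 on lab food. The mean was 294 ± 13.8 in Catalina and 182 ± 15.4 in Sonoran (SD over 3 strain means), a ratio of 1.62. Its SD on the log2(normalized count + 8) scale was 0.13 within Catalina and 0.15 within Sonoran, so a small difference in level was enough to part all 9 libraries of each side.

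**Figure D2:**
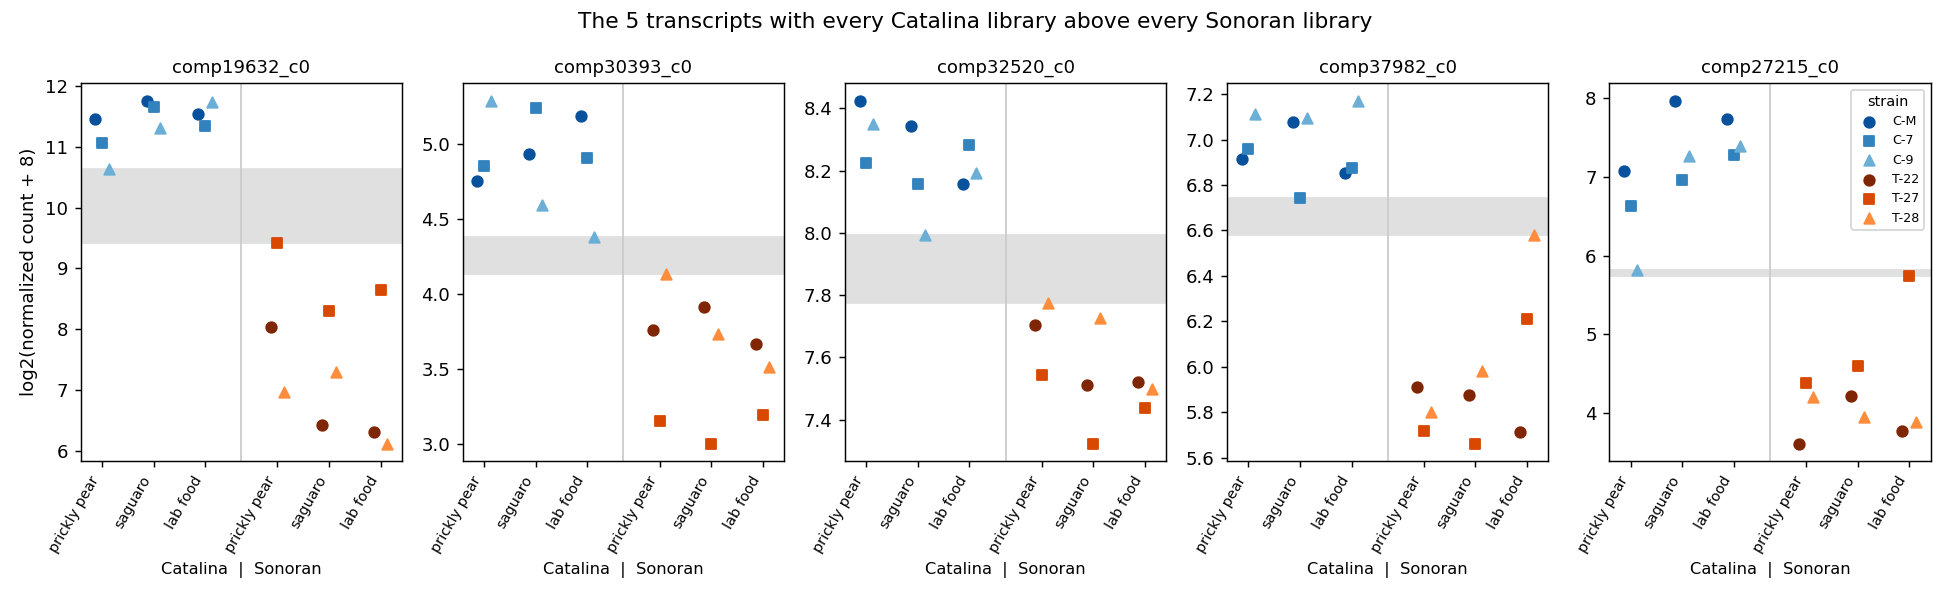
Level of each of the 5 transcripts as log2(normalized count + 8) (y axes, scaled per panel) in the 9 Catalina libraries (left, blue) and the 9 Sonoran libraries (right, orange), by food, with a marker for each strain. The grey band spans the gap between the lowest Catalina and the highest Sonoran library, widest for comp19632_c0 at 1.21 and narrowest for comp27215_c0 at 0.07.

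The libraries that bounded the gaps were not spread evenly over the strains. The lowest Catalina library came from strain C-9 for 4 of the 5 transcripts and from C-7 for 1. The highest Sonoran library came from T-28 for 3 and from T-27 for 2. By food, the lowest Catalina library was on prickly pear for 2 transcripts, on saguaro for 2 and on lab food for 1, and the highest Sonoran library was on prickly pear for 3 and on lab food for 2. With 5 transcripts these are descriptions of the list only.

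The ratio between the populations was present on each food but its size moved for some transcripts. For comp19632_c0 Catalina stood 6.22 times as high as Sonoran on prickly pear, 17.2 times on saguaro and 16.9 times on lab food. For comp27215_c0 the ratios were 9.70 on prickly pear, 14.8 on saguaro and 8.83 on lab food. For comp30393_c0 they were 4.43, 5.54 and 6.83 on prickly pear, saguaro and lab food. comp32520_c0 was the steadiest, with 1.60 on prickly pear, 1.59 on saguaro and 1.68 on lab food. comp37982_c0 had 2.49 on prickly pear, 2.39 on saguaro and 1.78 on lab food, the last with Sonoran strain T-28 at its highest value.

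**Figure D3:**
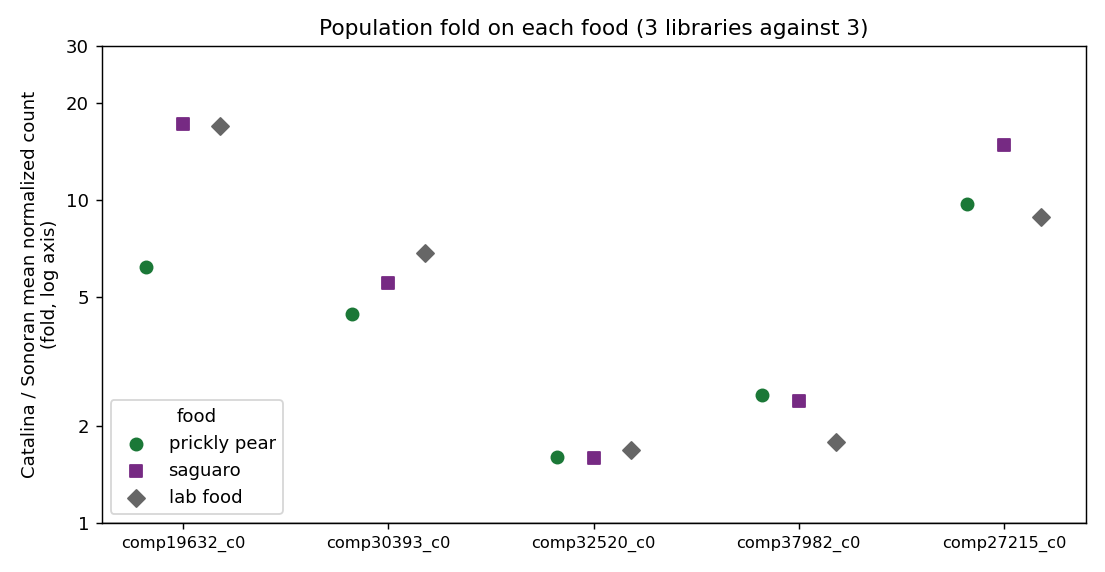
Ratio of the Catalina to the Sonoran mean normalized count (y axis, log scale) for each of the 5 transcripts (x axis) on prickly pear, saguaro and lab food, with 3 libraries of each population behind each point. All 15 ratios lie above 1, from 1.59 to 17.2.

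Whether these ratios differed between foods is a question the selection did not use directly, although a transcript whose libraries overlap between populations on any food could not be chosen. The contrast tested was the food response of Catalina minus that of Sonoran, with edgeR's quasi-likelihood test on all 12514 transcripts that passed the filter. None of the 5 was called at an adjusted p below 0.05 in the joint test over the 3 foods, where 0% of all tested transcripts were called. None of the 5 had an unadjusted p under 0.05 either, against 1197 of all tested, or 9.57%, and DESeq2 called 59 transcripts, none of them among the 5. In the joint test the smallest adjusted p of the 5 was 0.697, for comp19632_c0 (edgeR), and it ran from 0.518 to 0.999 over the other settings. The 3 separate contrasts of foods likewise called 0% of all tested transcripts with edgeR, and none of the 5 had an unadjusted p under 0.05 in them. Over all tested, 555 had such a p for prickly pear against lab food, 2300 for saguaro against lab food and 248 for saguaro against prickly pear. DESeq2 called 0, 377 and 0 transcripts in these contrasts, none of them among the 5. Since comp30393_c0 passed the filter mainly through Catalina, its part in these counts is not read as a result.

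The largest of these differences belonged to comp19632_c0. On prickly pear against lab food its response differed by -1.53 log2 units between Catalina and Sonoran (SE 0.96, adjusted p = 0.852, edgeR), and on saguaro against prickly pear by 1.55 (SE 0.97, adjusted p = 0.982, edgeR). On normalized counts the strains lined up by population in the first of these. On prickly pear minus lab food, all 3 Catalina strains were below 0, from -1.09 to -0.07 in log2(normalized count + 8). All 3 Sonoran strains were above 0, from 0.77 to 1.71. With library totals alone this line-up did not hold: C-M had 267 CPM on prickly pear against 227 on lab food. On that scale C-7 had 189 against 218 and C-9 204 against 209, and all 3 Sonoran strains stayed higher on prickly pear. Catalina means were 2174 ± 609 on prickly pear and 2974 ± 401 on lab food, and Sonoran means were 350 ± 293 and 176 ± 189 (SD, n = 3 each). The same strains were reared on each food, and with strain as a block the difference in response was -1.75 (adjusted p = 0.852, edgeR), which missed the threshold as the unblocked fit did.

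For comp27215_c0, prickly pear was below lab food in all 3 Catalina strains, by -1.59 to -0.65 log2 units, and in 2 of 3 Sonoran strains, whose differences ran from -1.37 to 0.31. Its Catalina mean was 88.5 ± 39.2 on prickly pear, 169 ± 66.2 on saguaro and 171 ± 30.2 on lab food, and its Sonoran mean was 9.12 ± 4.44, 11.4 ± 4.45 and 19.4 ± 22.7 (SD, n = 3 each). Saguaro against lab food differed by 0.75 log2 units between Catalina and Sonoran (SE 0.90, adjusted p = 0.6997, edgeR), and without strain T-27 that difference was -0.56, so its sign rests on that strain. It was 0.28 with strain as a block and 0.17 with library totals alone. Its food span of 0.69 was the largest of the 5, next to 0.16 to 0.32 for the others. In comp32520_c0, saguaro was below prickly pear in all 6 strains, by -0.36 to -0.07 in Catalina and by -0.22 to -0.05 in Sonoran. comp30393_c0 and comp37982_c0 had no food contrast with 1 sign in all 6 strains.

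**Figure D4:**
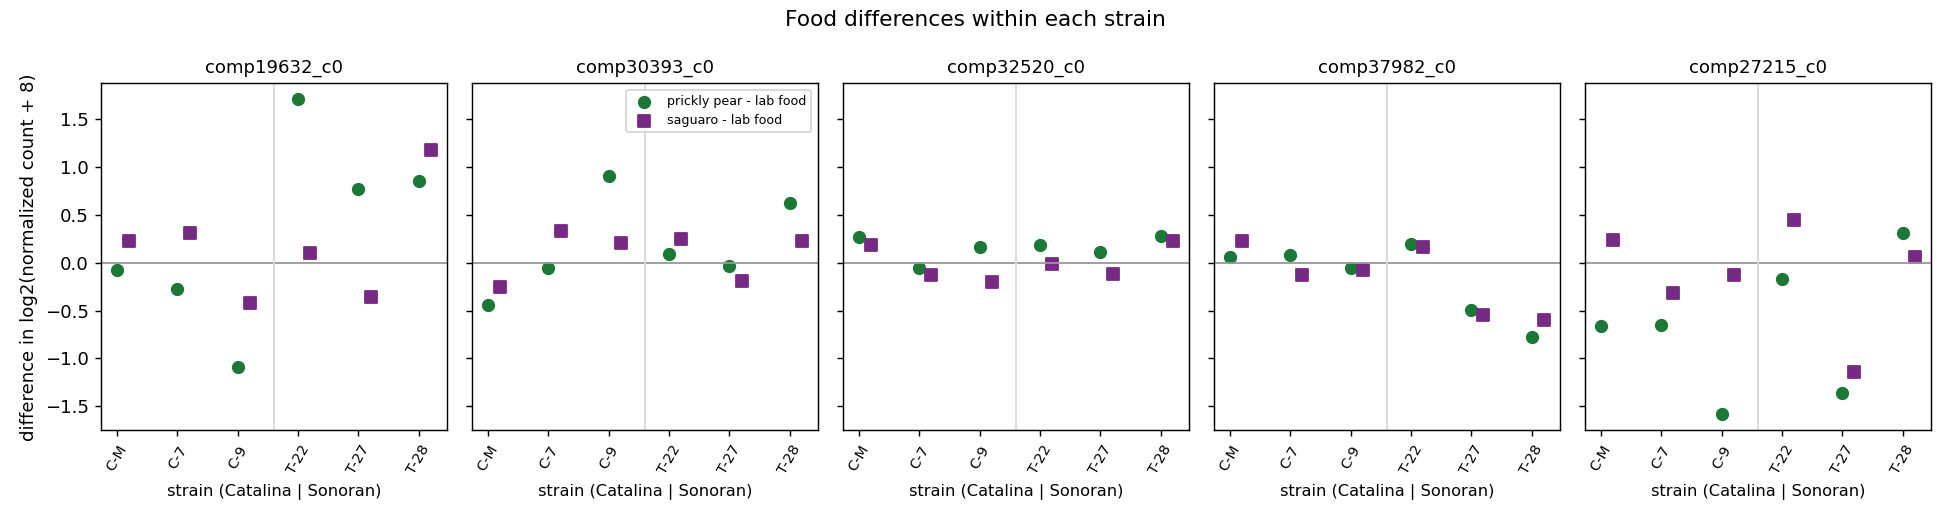
Difference in log2(normalized count + 8) between prickly pear and lab food (circles) and between saguaro and lab food (squares) in each strain (x axes, Catalina strains left of Sonoran strains) for the 5 transcripts. For comp19632_c0 the circles lie below 0 in the 3 Catalina strains and above 0 in the 3 Sonoran strains.

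Within Catalina the strains lay close to each other. The highest strain mean was 1.09 to 1.23 times the lowest for 4 of the transcripts and 1.62 times for comp27215_c0, where C-M was the highest strain on all 3 foods. The test of strain differences within Catalina took the 3 foods of a strain as its replicates and called none of the 5, against 0.216% of 12514 tested transcripts (27 called; edgeR). Without comp30393_c0, which passed the filter through Catalina, their adjusted p-values were 0.623 to 0.923 (edgeR). None of these had an unadjusted p under 0.05 (edgeR), against 9.01% of all tested. DESeq2 called 268 transcripts but none of the 5, and it gave no adjusted p for comp30393_c0. A low Catalina strain could have kept a transcript out of the list, so these counts are not independent of the selection.

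Within Sonoran, the strain means lay farthest apart in 3 of the 5 transcripts, and T-27 had the highest mean in 2 of these and the lowest in 1. For comp19632_c0 the mean was 459 ± 194 in T-27, 134 ± 103 in T-22 and 109 ± 44.2 in T-28 (SD over 3 foods), and T-27 was the highest strain on all 3 foods. Without its prickly pear library the T-22 mean was 74.8. For comp27215_c0 it was 24.9 ± 18.03 in T-27, 6.82 ± 3.37 in T-22 and 8.22 ± 1.92 in T-28, and T-27 was again the highest on all 3 foods. That mean rests on the lab food library: without it T-27 averaged 14.5 over the cacti, beside 7.39 in T-22 and 8.92 in T-28. For comp30393_c0 it was 0.684 ± 0.603 in T-27, 5.79 ± 1.19 in T-22 and 6.09 ± 3.14 in T-28, and here T-27 was the lowest on all 3 foods. The strain nearest to Catalina in the first 2 was thus the farthest from it in comp30393_c0. In comp32520_c0 the Sonoran strain means differed by 1.18 times, with T-27 lowest on all 3 foods, and in comp37982_c0 by 1.29 times.

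The test of strain differences within Sonoran called none of the 5 with edgeR, against 0.224% of 12514 tested (28 called). comp19632_c0 came closest, with an unadjusted p of 0.000185 and an adjusted p of 0.0701 (edgeR), and DESeq2 called it (adjusted p = 1.86e-06) among 166 transcripts. Over 7 other settings its adjusted p ran from 1.86e-06 to 1.0, and only DESeq2 put it below 0.05. comp27215_c0 had an unadjusted p of 0.00749 and an adjusted p of 0.435 (edgeR). Without the lab food libraries its adjusted p was 0.99998 (edgeR), but 0 transcripts in all were called there. Without the saguaro libraries, which keeps T-27 on lab food, it was 0.9998 (edgeR). These settings therefore do not single out the lab food library. Over all 12514 tested, 710 had an unadjusted p under 0.05, or 5.67%. No p is given for comp30393_c0, which passed the filter through Catalina and reached 10 counts in 1 Sonoran library. The test looks within Sonoran, but the selection used those values too and barred high Sonoran libraries, so its outcome for the 5 is not independent of it.

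The spread of each transcript over the 18 libraries was divided into parts on the log2(normalized count + 8) scale. Between populations lay 81.1 to 86.9% of it for the 5 transcripts, against a median of 2.67% for all tested, a part that the selection fixed. The selection thereby also limited what the other parts could hold, so they are given for the 5 alone. Strains within populations took 4.56 to 10.1% and food took 0.375 to 4.25%. The part that was unlike between populations from food to food was 2.73% for comp19632_c0, the highest of the 5, and 0.0804% for comp30393_c0, the lowest.

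Transcripts just beyond the limits show what each limit removed. These were chosen after their values were seen. Past the tie, the next were comp1031484_c0, with a gap of -0.03 and means of 3.78 normalized counts in Catalina and 0.214 in Sonoran, and comp35895_c0, with a gap of -0.04 and means of 316 in Catalina and 270.0 in Sonoran. The limit of 0.8 on the food span kept out 2 separated transcripts. comp20620_c0 had a gap of 1.18, a food span of 1.07 and means of 567 in Catalina and 20.3 in Sonoran. comp27976_c0 had a gap of 0.28, a food span of 1.05 and means of 149 in Catalina and 5.42 in Sonoran. A further 6 separated rows, with gaps of 0.01 to 5.31, belong to components with several rows, where reads can be divided between near copies. Over all 15947 rows, 13 were separated in each direction, or 0.0815%.

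A weaker reading of the label asks only that the populations do not overlap within each food. Alone, prickly pear parted 500 of the 7504 eligible transcripts with Catalina higher (6.66%), saguaro 266 (3.54%) and lab food 628 (8.37%). With Sonoran higher the counts were 288 on prickly pear (3.84%), 331 on saguaro (4.41%) and 413 on lab food (5.5%). All 3 foods at once did so for 10 transcripts with Catalina higher, or 0.133%, the 5 among them by construction, and for 12 with Sonoran higher, or 0.16%. With library totals alone, 4 of the 5 still parted on all 3 foods, and comp32520_c0 on 2 of them. Within single foods the smallest gap was 1.21 for comp19632_c0, 1.44 for comp27215_c0, 0.62 for comp30393_c0, 0.27 for comp37982_c0 and 0.27 for comp32520_c0. comp27215_c0, which parted by the narrowest margin over all foods, had a wider gap than comp19632_c0 on prickly pear, at 1.44 against 1.21. On saguaro its gap was 2.36 against 3.01 for comp19632_c0, and on lab food 1.53 against 2.69.

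The separation also rests on how libraries are scaled. With TMM factors all 5 gaps stayed above 0, at 0.06 to 1.15. With library totals alone 3 of the 5 did, comp19632_c0 at 1.22, comp37982_c0 at 0.14 and comp27215_c0 at 0.98, while the gap was -0.27 for comp30393_c0 and -0.66 for comp32520_c0. On that scale comp19632_c0 went past the limit on the food span and would not have been listed. The mean stayed higher in Catalina for all 5 on that scale, with log2 ratios of 2.34 for comp30393_c0 and 0.65 for comp32520_c0. Leaving out a strain can only keep or widen a gap of this kind, so it is no check of the separation. Without strain T-28, comp27215_c0 too went past the limit on the food span and would not have been listed.

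**Figure D5:**
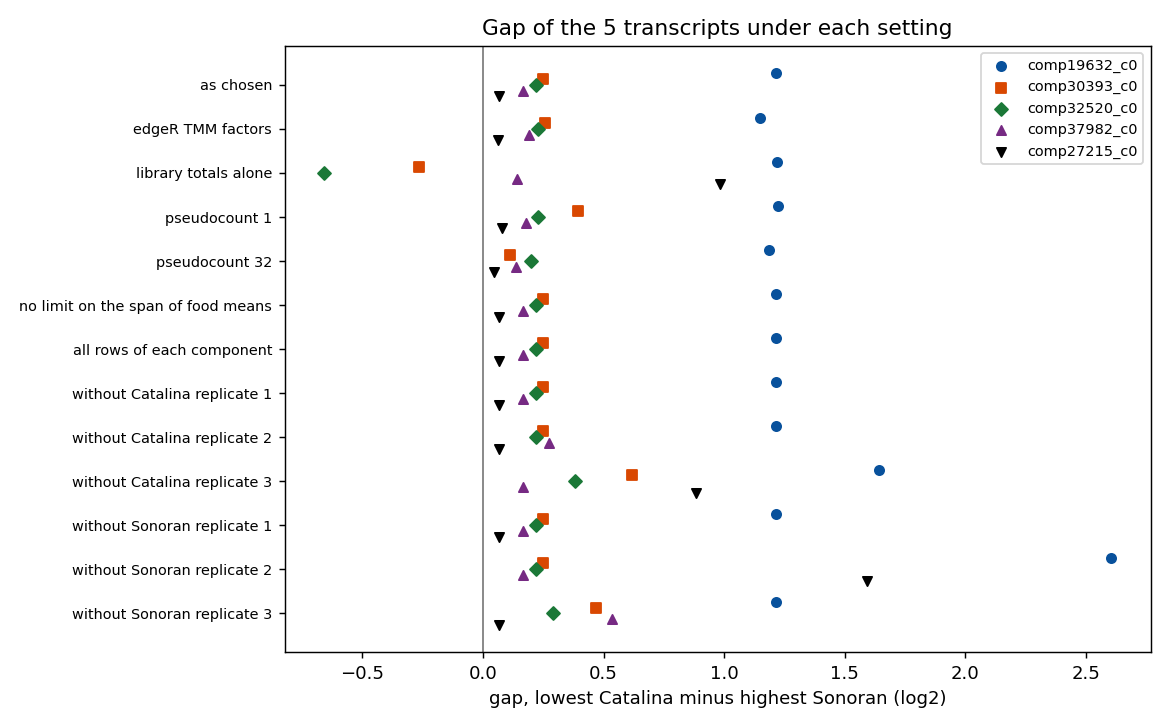
Gap in log2 units (x axis), the lowest Catalina minus the highest Sonoran library, for each of the 5 transcripts (markers) under each setting (y axis). With library totals alone comp30393_c0 and comp32520_c0 fall below 0, and without Sonoran replicate 2 (strain T-27) the gap of comp19632_c0 is 2.61 and that of comp27215_c0 is 1.59.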

How the data were processed

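The authors deposited whole-number counts per assembled gene for 18 libraries. The series' design text names a Trinity assembly made without a genome, whose isoforms were joined into 1 row per gene. The counter, its version and any filter: not given in the sources used here. The submitters' processing notes name edgeR. Per the labels' protocols, RNA of 10 pooled larvae was extracted with Tri-reagent and each library was divided over both lanes. The files pair no assembly name with a gene, so no gene list was used.

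The members and lists were chosen with earlier results of these data known. Size factors used the 10912 rows without a 0. Tests used R 4.3.3 and edgeR 4.0.16: filterByExpr on the 6 groups left 12514 transcripts, TMM factors scaled the libraries, and quasi-likelihood F tests with Benjamini-Hochberg adjustment over all of them called at 0.05. Food responses were compared in a model of 6 group means (12 residual degrees of freedom). Strains within a population were compared after adding strain terms (8 residual degrees of freedom). The fits were also run on simulated counts, with planted changes larger than the differences in food response given here. That run does not show how often differences of the size given here would be found. DESeq2 1.42.0 was an alternative. The p-values of the food response tests measure the spread between strains and pools. Those of the strain tests rest on what remains after strain and food, with 1 pool per strain and food. Differences between pools and food responses particular to a strain cannot be told apart there.

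The rule for naming transcripts took the 4 largest gaps in each of 3 classes of Sonoran level, the 3 with the highest level, strain range, food span or difference in food response, and any called transcript. It names all 5 members with a gap above 0. Neighbours named beyond it were chosen with their values known. Libraries of 1 stock are paired across foods by the labels. Their departures from the group means correlated with a median r of 0.133 over 18 such pairs, from -0.243 to 0.636, with 12 over 0.1. Strain as a replicate block was an alternative. No libraries were repeats: within groups, chi-square divided by its degrees of freedom was at least 26.6 for each pair. Counting floors are 3 counts and cover counting error only.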

Additional observations from a re-analysis of the deposited data

Results flagged for a closer look

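comp19632_c0 was flagged because its prickly pear minus lab food difference had opposite signs in the populations: the mean was -0.48 log2 units in Catalina, below 0 in 3 of 3 strains, and 1.11 in Sonoran, above 0 in 3 of 3 strains. The test of this difference in response was not called (adjusted p = 0.852, edgeR). Over 11 other settings, with edgeR or DESeq2, the adjusted p ran from 0.632 to 0.99995. How many of all tested transcripts had such opposite signs was not counted. The signs also rest on the scaling. With library totals alone, Catalina strain C-M was higher on prickly pear, at 267 CPM against 227 on lab food.

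comp27215_c0 was flagged for 1 library far from the others: Sonoran strain T-27 on lab food had 45.6 normalized counts, and the next highest of the 9 Sonoran libraries had 16.2. Of 10 groups examined for such a library this was the only one, and chance alone flags about 1 in 20 of the groups examined.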

How the results depend on the processing

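Of the 40 listed transcripts, 34 to 40 stayed in the top 40 under other scalings, pseudocounts and limits, and 17 to 33 when 1 strain was left out, numbers that mostly follow which rows are tied at 0. All 5 gaps stayed above 0 with TMM factors and with pseudocounts of 1 and 32, while library totals alone left 3 (gaps of -0.27 for comp30393_c0 and -0.66 for comp32520_c0). Leaving out a strain, lifting the limit on the food span or taking all rows of a component cannot lower a gap. Eligible transcripts with a gap above 0 numbered 9 with all rows of each component and 10 to 18 when 1 strain was left out. The median log2 ratio of Catalina to Sonoran CPM was 2.39 over the 5, and 1.89 to 2.76 without 1 strain each.

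The difference in response to food, 0 calls with edgeR, gave 59 calls in the joint test with DESeq2; saguaro against lab food gave 377 with DESeq2 and, leaving out a strain, 0 to 741 calls. For comp27215_c0 that contrast was 0.75, -0.56 to 1.17 without 1 strain each, 0.28 with strain as a replicate block and 0.17 with library totals alone. With strain as a replicate block there were 0 calls in each of these tests, as without it. Strain differences within Catalina numbered 27 calls, 268 with DESeq2, 0 without the lab food libraries, 1 without prickly pear and 0 without saguaro; within Sonoran they numbered 28, then 166, 0, 2 and 4 in that order. The number of the 5 called within Sonoran was 0, and 1 with DESeq2. The causes were not tested.

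Depth limits comp30393_c0 most, with 40 counts over the 9 Sonoran libraries.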
